A study of Mus musculus with 38 samples.

Results

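The L1M families are the old, mammalian-wide LINE-1 retrotransposons of the mouse genome. They were taken from the table of transposable element (TE) copies as every copy annotated to the L1 family whose subfamily name begins with L1M followed by a capital A to E or a digit. This rule took 191928 of 3793386 TE copies, or 5.06%, in 84 of 1241 families, and left out the younger rodent L1Md and Lx families. The names divide the members into 9 L1MA families with 32470 copies, 7 L1MB families with 28279 copies, 11 L1MC families with 32960 copies, 6 L1MD families with 15623 copies, 27 L1ME families with 26973 copies and 24 families with a digit in that place (L1M1, L1M2 and so on) with 55623 copies. L1M2 was the most numerous, with 14842 copies, and L1M2a1 the least, with 3. L1M2a1 and L1M2b (4 copies) fell under the minimum of 20 copies per family and were not tested, which left 82 L1M families among 1170 tested TE families.

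LINE-1 elements copy themselves into the genome through an RNA that is reverse transcribed at the insertion site. The L1M families stopped moving long ago, the letters A to E run broadly from younger to older, and what remains are mostly short, diverged fragments that cannot transpose. LINE-1 sequence is enriched in the lamina-associated domains, the large heterochromatic regions that lie against the inner face of the nuclear envelope. In these domains chromatin meets the lamins, which form a filament meshwork under the inner nuclear membrane, and membrane proteins such as the lamin B receptor (LBR), which binds heterochromatin, and LAP2B, an isoform made by the Tmpo gene that binds lamins and chromatin.

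The study profiled LAP2B by CUT&RUN, in which an antibody-tethered nuclease releases the DNA near its target, in naive mouse embryonic stem cells (mESCs) kept in 2i and LIF and in epiblast-like cells (EpiLCs) made from them with FGF and Activin A, both collected at 48 h. The genotypes were wild type (WT), a knockout of LBR made in WT (LBRKO), a triple knockout of the lamins (TKO) and a quadruple knockout of the lamins and LBR (QKO), with 3 LAP2B libraries of 200000 cells for each genotype and stage. Lamin B1 (LMNB1) and a no-target antibody control (IGG) were profiled in WT at both stages, again with 3 libraries each, so no mutant had its own control. QKO was a single clone made in the TKO line, the WT and TKO lines came from another laboratory and were littermates, and the methods report trisomies and loss of the Y chromosome in the TKO line and in a part of the WT cells.

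Summed over TE copies, the values of the 24 LAP2B libraries were worth 37680269 to 107337720 reads, those of LMNB1 88693416 to 112607111 and those of IGG 37407387 to 131279137. Copies that share a bin count its reads again, so these sums are above the reads over repeats and are not sequencing depths. The median L1M copy received 6 to 20 reads in a LAP2B library, so single copies were measured coarsely and family means over many copies were far steadier. No 2 replicates held identical values. With reads taken as independent, the chi-square per degree of freedom was 2.25 to 2.76 over 36 pairs of replicates. Both mates of a read pair and reads that touch neighbouring bins are counted more than once, so this does not measure spread beyond counting noise. The sources state 3 replicates per condition but not whether they were separate cultures, so the p-values measure the spread between these libraries. Each value sums the read coverage of all the genome bins a copy touches, so a level cannot be compared between families of different copy length, and a signal in bulk cells cannot tell fewer cells with contact from weaker contact per cell.

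Levels are given on a relative scale, on which each library was divided by its median TE family, and a change on this scale is a change against the typical repeat. Fitted changes are log2 of the level plus a pseudocount of 0.0857, and are therefore somewhat smaller than the ratio of the levels themselves. In naive QKO the share of L1M families that changed in each direction was close to that of all repeats. Relative to the median family, 33 of 82 L1M families were higher than in WT and 34 were lower (limma adjusted p under 0.05), against 37.9% higher and 42.7% lower among all 1170 families. The median L1M change was 0.01 on the log2 scale, beside -0.02 over all families, and the L1M families spread from -0.51 to 0.45.

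The direction followed the subgroup. All 9 L1MA families were lower, with a median of -0.27 and a range from -0.39 to -0.18. Of the 7 L1MB families 6 were higher and 1, L1MB1, was lower, with a median of 0.30. Of the 27 L1ME families 17 were higher and 3 lower (median 0.12), and of the 6 L1MD families 4 were higher and 1 lower (median 0.06). These are changes of family means. Over single copies above the lowest 10% of signal, the median change was -0.05 in L1ME and -0.12 in L1MD, beside -0.06 over all repeats. The 22 tested families named with a digit leaned the other way, with 2 higher and 14 lower (median -0.20), and the 11 L1MC families were divided, with 4 higher and 6 lower (median -0.05).

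**Figure D1:**
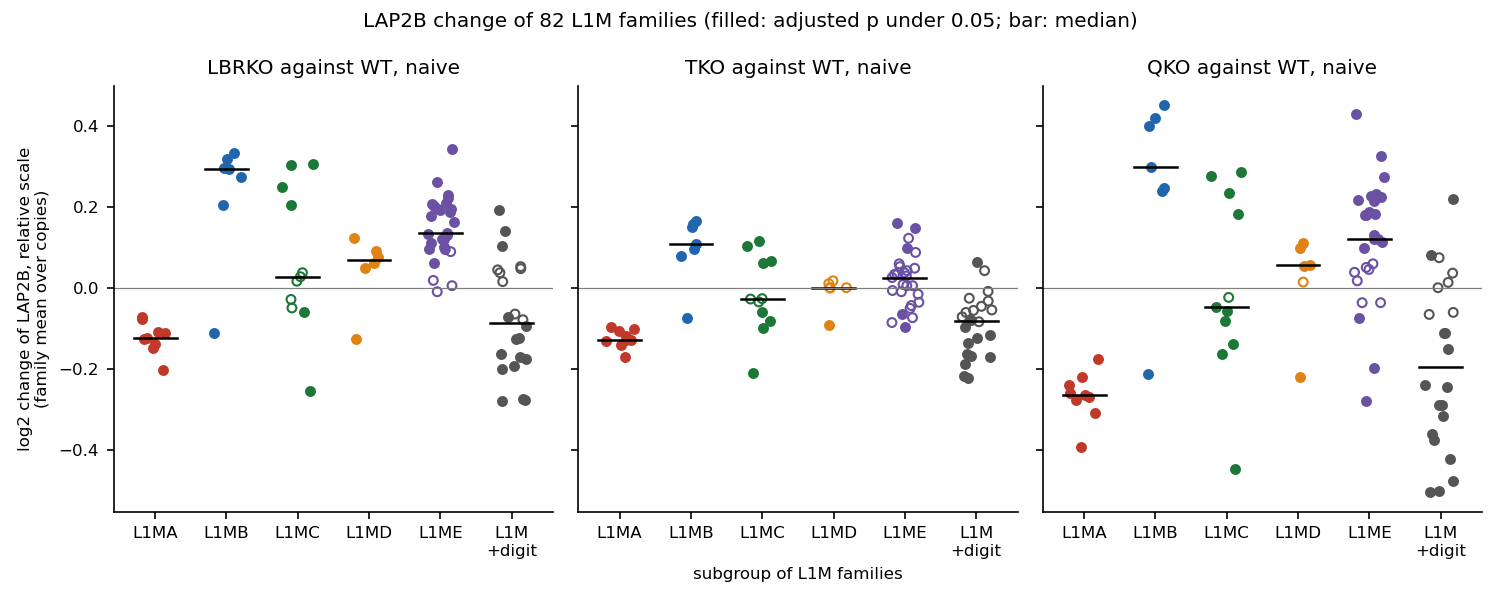
LAP2B change of the 82 L1M families in naive LBRKO, TKO and QKO against WT, as log2 of the family mean on the relative scale, by subgroup. Each point is 1 family, filled where limma's adjusted p was under 0.05, and the bar is the median. The 9 L1MA families lie below 0 in all 3 panels, and all L1MB families but L1MB1 lie above it; scaled to the median gene, all 82 families are lower in TKO and QKO.

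The most numerous family of each subgroup shows these directions library by library. L1MA6 (6933 copies) stood at 0.988, 1.03 and 0.993 times the median family in the 3 naive WT libraries and at 0.780, 0.831 and 0.775 in naive QKO. L1MB7 (6166 copies) stood at 0.856, 0.823 and 0.882 in WT and at 1.18, 1.16 and 1.17 in QKO. The groups did not overlap in either family, and relative to the median family they moved in opposite directions.

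L1M2, the largest L1M family, resembled L1MA6, with 0.978, 1.02 and 0.989 in WT and 0.779, 0.840 and 0.784 in QKO. Relative to the median family, though not to the median gene, L1MC4 (5279 copies) rose from 0.876, 0.860 and 0.897 to 1.05, 1.04 and 1.05. L1MD (4874 copies) and L1ME1 (3925 copies) moved least. L1MD went from 0.815, 0.810 and 0.835 to 0.886, 0.906 and 0.884, and L1ME1 from 0.876, 0.867 and 0.898 to 0.941, 0.972 and 0.933. Their median single copies changed by -0.08 and -0.05, so the rises are those of the family mean. No WT library overlapped a QKO library in any of these 4 families. The fitted changes were -0.29 ± 0.033 (SE) for L1M2, 0.23 ± 0.022 for L1MC4, 0.11 ± 0.022 for L1MD and 0.10 ± 0.023 for L1ME1, with limma adjusted p of 1.35e-07, 9.35e-09, 0.000137 and 0.000574.

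**Figure D2:**
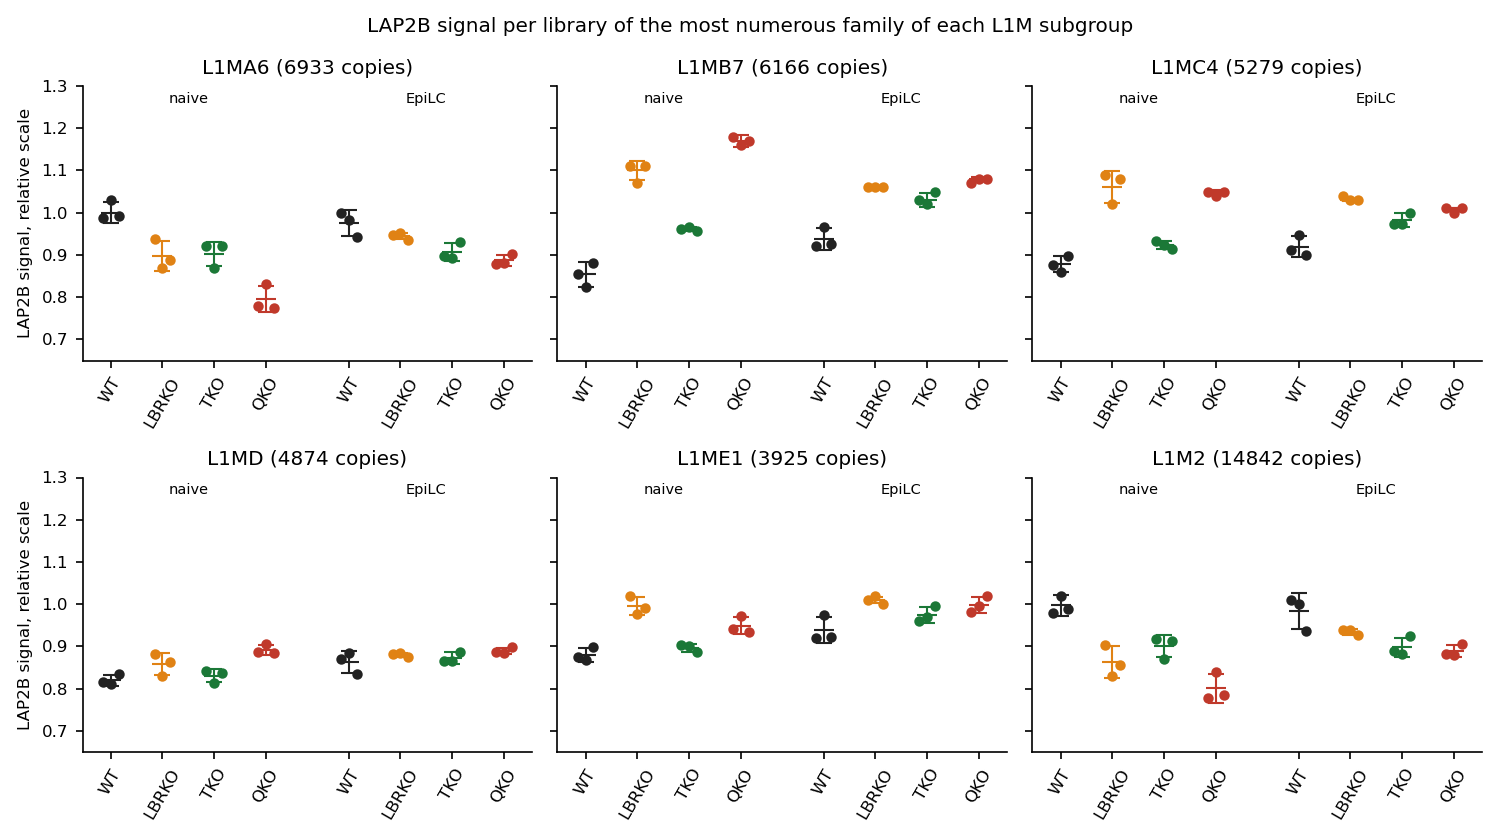
LAP2B signal of the most numerous family of each L1M subgroup in each of the 24 LAP2B libraries, on the relative scale (1 is the median TE family of that library). Points are libraries and bars the mean and SD of 3. The axis starts at 0.65. In naive cells the L1MA6 and L1M2 points of QKO lie below all WT points, and those of L1MB7, L1MC4, L1MD and L1ME1 lie above them.

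Among families of at least 200 copies whose WT and QKO libraries did not overlap, the 4 largest relative rises belonged to L1MB5, L1ME4b, L1MB7 and L1MB3. L1MB5 (2985 copies) went from 0.837, 0.812 and 0.882 in WT to 1.2, 1.16 and 1.19 in QKO. Its fitted change was 0.45 ± 0.025 (limma adjusted p = 3.53e-12), and the mean level rose 1.4-fold against the median family. L1ME4b (1772 copies) went from 0.783, 0.744 and 0.819 to 1.08, 1.07 and 1.1, a change of 0.43 ± 0.027. L1MB7 changed by 0.42 ± 0.022 and L1MB3 (5177 copies) by 0.40 ± 0.024. All 4 turn to falls when libraries are divided by their median gene instead, with log2 changes of -0.23, -0.24, -0.26 and -0.28 in the same order.

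The 4 largest falls under the same limits belonged to L1MCb, L1M2c, L1MA9 and L1M3c. L1MCb (874 copies) went from 1.03, 1.1 and 1.03 in WT to 0.715, 0.801 and 0.730 in QKO. Its fitted change was -0.45 ± 0.037 (limma adjusted p = 1.43e-09), and the mean level in QKO was 0.712 of WT. L1M2c (415 copies) went from 1.03, 1.04 and 1.00 to 0.724, 0.778 and 0.724, a change of -0.42 ± 0.036. L1MA9 (4413 copies) changed by -0.39 ± 0.034 and L1M3c (416 copies) by -0.38 ± 0.039. Of the families under 200 copies, L1M3f (76 copies), L1M3a (145 copies) and L1M3de (151 copies) fell further than L1MCb, by -0.51 ± 0.056, -0.50 ± 0.047 and -0.48 ± 0.058.

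Neighbours in the naming series could part sharply. Within L1MB the change went from -0.21 ± 0.024 for L1MB1 to 0.24 ± 0.023 for L1MB2, and L1MB4 (0.30), L1MB8 (0.25) and the families above followed L1MB2. Within L1MC the numbered families L1MC1 to L1MC3 fell slightly, by -0.06, -0.05 and -0.08, while L1MC4, L1MC4a, L1MC5 and L1MC5a rose by 0.23, 0.18, 0.28 and 0.29. Among the families with a digit, L1M4 (10670 copies) rose by 0.22 and L1M5 (13398 copies) by 0.08, both relative to the median family, whereas L1M2, L1M3 (-0.11) and all tested L1M3 offshoots fell. All these rises are relative to the median family, and each of the 82 families was lower against the median gene. They are also rises of the family mean. The median single copy changed by -0.10 in L1M5 and -0.002 in L1MC4a, and was positive in the other families named here as rising. The neighbours were picked out after their values were seen.

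How many families pass depends on the scale. Dividing by the median gene shifts the median of all TE families in naive QKO by -0.68, and all 82 L1M families are then lower and 0 higher, against 95% and 2.56% of all families. Dividing by the mean over all copies shifts it by -0.24 and leaves 5 L1M families higher and 61 lower, against 13.4% and 74.5% of all families. With the median over copies in place of the mean, 39 L1M families passed in place of 67, against 54.1% of all families. Apart from the pseudocount, the order of the families does not depend on the library scale, since a scale multiplies every family alike.

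A ratio of 2 families within a library carries no scale at all, and L1MA6 over L1MB7, a pair chosen after its values were seen, is given as such. It was 1.15, 1.25 and 1.13 in naive WT (mean 1.18 ± 0.0643, SD). The LBRKO libraries had 0.843, 0.811 and 0.801, the TKO libraries 0.957, 0.901 and 0.962 and the QKO libraries 0.661, 0.720 and 0.660 (mean 0.68 ± 0.0344). In EpiLCs it was 1.09, 1.02 and 1.02 in WT, and the LBRKO libraries had 0.893, 0.895 and 0.881, the TKO libraries 0.873, 0.878 and 0.886 and the QKO libraries 0.820, 0.813 and 0.837. Every mutant library of a stage lay below every WT library of that stage, and QKO lay lowest at both stages.

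In naive LBRKO, which keeps its lamins, 40 L1M families were higher and 25 lower relative to the median family, against 31.6% higher and 42.6% lower over all families. The median L1M change was 0.06, beside -0.03 over all families. All 9 L1MA families were lower (median -0.13), 6 of 7 L1MB families were higher (median 0.29), and 22 of 27 L1ME families were higher and none lower (median 0.13). The largest changes among families of at least 200 copies without overlap were L1ME4b at 0.34 ± 0.027 and L1MB7 at 0.33 ± 0.022, and L1M3c at -0.27 ± 0.039 and L1MCb at -0.26 ± 0.037. L1ME4b stood at 1.04, 0.987 and 1.02 in the LBRKO libraries and L1MCb at 0.915, 0.858 and 0.829, each apart from all WT libraries. The median gene as the scale shifts the median family by -0.34 and leaves 0 L1M families higher and 68 lower (2.39% and 88.6% of all families), dividing by the mean leaves 29 higher and 28 lower (22.3% and 50.3%), and with the median over copies 28 families passed (46.5%).

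In naive TKO, which keeps LBR, the changes were smaller. Relative to the median family 14 L1M families were higher and 28 lower, against 33.6% higher and 21.5% lower over all families, so the L1M share of lower families stood above that of all families and the share of higher ones below it. The median L1M change was -0.03, beside 0.02. All 9 L1MA families were again lower (median -0.13) and 6 of 7 L1MB families higher (median 0.11), while only 3 of 27 L1ME families were higher and 2 lower (median 0.03).

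Among families of at least 200 copies L1MB3 rose most in TKO relative to the median family, by 0.17 ± 0.024, with L1ME4b at 0.16 ± 0.027, and both were lower against the median gene, each by -0.31. L1MCb fell most among families of that size, by -0.21 ± 0.037, with L1M2c at -0.17 ± 0.036, while the smaller L1M3de and L1M3f had -0.22 ± 0.058 and -0.22 ± 0.056. L1MB3 stood at 0.874, 0.833 and 0.895 in naive WT and at 0.981, 1.00 and 0.962 in TKO, and L1MCb at 0.925, 0.864 and 0.903 in TKO. Dividing by the median gene shifts the median family by -0.48 and leaves 0 higher and 82 lower (0.427% and 96.2% of all families), dividing by the mean leaves 2 higher and 62 lower (12.6% and 53.7%), and 7 families passed with the median over copies (19.5%).

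QKO and its parent line TKO differ in LBR. Set against naive TKO, naive QKO had 37 L1M families higher and 25 lower relative to the median family, against 30.8% higher and 39.1% lower over all families. The median L1M change was 0.03, beside -0.03. The 9 L1MA families were all lower (median -0.14), 6 of 7 L1MB families were higher (median 0.19), and 19 of 27 L1ME families were higher and 2 lower (median 0.11). L1MB5 rose by 0.30 ± 0.025 and L1ME4b by 0.27 ± 0.027, while L1M2c fell by 0.25 ± 0.036 on the log2 scale and L1MCb by 0.24 ± 0.037. With the median gene as the scale the median family shifts by -0.20, which leaves 0 higher and 45 lower (4.79% and 68.7% of all families), dividing by the mean leaves 6 higher and 44 lower (11.2% and 66.6%), and 16 families passed with the median over copies (35.2%). These comparisons share WT or QKO libraries, so their values stand side by side without a test of likeness.

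In naive QKO and LBRKO the younger rodent LINE-1 families, L1Md and Lx, moved further and in 1 direction. In naive QKO all 25 L1Md families and all 21 Lx families were lower relative to the median family, with medians of -0.63 and -0.58, and in LBRKO, where all were lower too, the medians were -0.54 and -0.47. In TKO 20 L1Md families were lower and 1 higher and 20 Lx families were lower, with medians of -0.18 and -0.19. The L2, CR1 and MIR families, which are old like L1M but of other superfamilies, had 20 of 40 higher and 13 lower in naive QKO with a median of 0.09. The L1M median of 0.01 in naive QKO lay between these groups, and no L1M family fell as far as the median L1Md family.

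On the scale as deposited, which refers each library to yeast spike-in DNA, the signal fell across the whole repeat complement. In naive QKO all 82 L1M families were lower than in WT, against 99.7% of all families, with a median of -1.75 and a range from -2.24 to -1.34 (log2, with a pseudocount of 0.0376). In naive TKO all 82 were lower, against 99.6%, with a median of -1.08. In naive LBRKO limma called 0 L1M families lower, with 4 at an unadjusted p under 0.05, against 8.63% of all families. With the median over copies 3 were called, and the share of all families in that fit is not given.

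The spike-in scale gave wide WT replicates. L1MA6 had deposited signals of 0.583, 0.957 and 0.639 in naive WT, 0.238, 0.366 and 0.275 in TKO and 0.147, 0.137 and 0.143 in QKO. L1MB7 had 0.504, 0.762 and 0.568 in WT and 0.222, 0.190 and 0.216 in QKO. Both families fell without overlap, the mean of L1MA6 to 0.196 of WT and that of L1MB7 to 0.343. The same families had IGG signals of 0.122, 0.0795 and 0.128 (L1MA6) and 0.124, 0.0892 and 0.138 (L1MB7) in naive WT. The deposited QKO signal of L1MA6 lay close to these values of the WT control. The spike-in factor holds an arbitrary constant, which the methods state for LAP2B but not for IGG, so the levels may not share a unit. The part of this background in the result was not tested.

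LMNB1 in WT placed the L1M families along a gradient of lamina contact, measured as log2 of LMNB1 over IGG with both on the relative scale. The highest values among families of at least 200 copies were 0.29 for L1MCb and 0.27 for L1M2c. The L1MA families lay between 0.10 and 0.25, L1MB1 at 0.15, and the other L1MB families between -0.29 and -0.13. L1ME4b had -0.29. The lowest, L1MEg at -0.43, rested on 2 of its 1690 copies with very high IGG: without the 1% of copies with the highest IGG, a setting added after its value was seen, it was -0.07, while L1MCb, L1M2c and L1ME4b kept 0.29, 0.27 and -0.30. L1MDa likewise went from -0.29 to -0.04 without 3 of its 2586 copies.

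WT LAP2B over IGG in naive cells was 0.19 for L1MCb, 0.13 for L1MA9, -0.25 for L1MB5 and -0.26 for L1MB3 and L1ME4b. Over all tested L1M families it ran from 0.27 for L1M3f (76 copies) to -0.51 for L1MEg, with L1MDa at -0.34. L1MEg and L1MDa are the families with a few copies of very high IGG.

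The naive QKO change sorted the families by this gradient. Of the 42 L1M families with LMNB1 over IGG above 0, 34 were lower and none higher, with a median change of -0.22. Of the 40 below 0, none was lower and 33 were higher relative to the median family, with a median of 0.18. Across the 82 families Spearman's rho was -0.918, and it was -0.758 across all 1170. These correlations are across families, which share the same libraries and the same genome bins, and are given as a description. The change is also taken against WT LAP2B. Its ratio to IGG was 0.19 for L1MCb and -0.26 for L1ME4b, where LMNB1 over IGG was 0.29 and -0.29. The part of this shared order in the correlations was not tested. Of all families in naive QKO, 74.5% of those above 0 were lower and 8.44% higher, and 15% of those below 0 were lower and 63.5% higher, so the sorting was not particular to L1M.

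In LBRKO the L1M families above 0 had 25 lower and 2 higher and those below 0 had none lower and 38 higher (rho -0.865). Of all families 69.7% above 0 were lower and 7.71% higher, and 19% below 0 were lower and 52.5% higher (rho -0.612). In TKO they had 27 lower and none higher above 0, and 1 lower and 14 higher below 0 (rho -0.887). The shares of all families in TKO were 40% lower and 12.5% higher above 0, and 5.28% lower and 52% higher below 0 (rho -0.661).

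**Figure D3:**
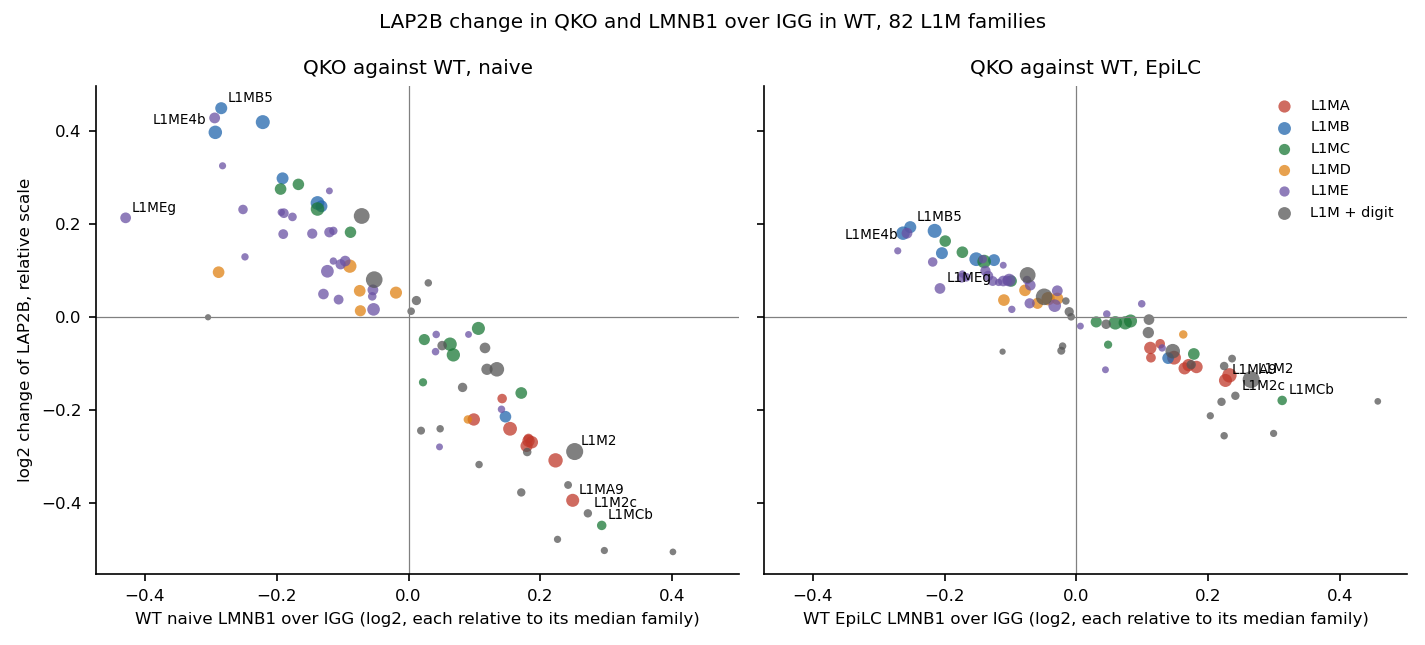
LAP2B change in QKO against WT (log2, relative scale) of the 82 L1M families against WT LMNB1 over IGG of the same stage (log2), for naive cells on the left and EpiLCs on the right. Points are families coloured by subgroup, and larger points have more copies. Families with much LMNB1, such as L1MCb, lie at the bottom right, and L1MB5 and L1ME4b lie at the top left. L1MEg stands apart on the left of the naive panel because of 2 copies with very high IGG.

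Single copies showed the same order more steeply. Copies above the lowest 10% of signal (3414046 in all, 169299 of them L1M) were ranked by WT LMNB1 over IGG and divided into 4 equal classes, each 25% of all copies. L1M copies were spread over them with 20.4% in the lowest class, 24.9% and 25.9% in the middle and 28.8% in the highest. L1MA copies leaned to the highest class (36.2%, against 13.5% in the lowest) and L1MB copies to the lowest (27.1%, against 21.2% in the highest). L1Md had 38.5% in the highest class and 4.21% in the lowest, and Lx 47% and 7.65%, so L1M copies sat nearer to an even spread than either young group.

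By family, L1MCb had 43.5% of its copies in the highest class and 9.74% in the lowest, L1M2 40.3% and 12.5%, and L1MA9 39.4% and 11.7%. L1MB5 had 18.5% and 32.1%, L1MB3 17.6% and 31.9%, and L1ME4b 15.9% and 29.4%. The families that fell most in naive QKO thus held more copies of the highest class and those that rose most held more of the lowest.

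In naive WT the LAP2B signal of L1M copies climbed with the class, from 0.602 ± 0.077 (SD, n = 3) in the lowest through 0.799 and 1.05 to 1.32 ± 0.077 in the highest. LBRKO had like means in the outer classes, with 0.990 ± 0.052 in the lowest and 0.988 ± 0.086 in the highest, and stood at 1.08 and 1.05 in the middle. TKO climbed slightly, from 0.906 ± 0.066 to 1.02 ± 0.073. QKO descended, from 1.46 ± 0.048 through 1.08 and 0.856 to 0.716 ± 0.047. On the deposited scale the QKO signal was below WT in every class, at 0.262 against 0.425 in the lowest class and 0.128 against 0.956 in the highest.

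The log2 ratio of the highest to the lowest class, which no library scale affects, was 1.05, 1.44 and 0.92 in the naive WT libraries. LBRKO gave 0.21, -0.19 and -0.04, TKO gave 0.26, -0.06 and 0.33, and QKO gave -1.13, -0.87 and -1.09. All mutant libraries lay below all WT libraries, LBRKO and TKO overlapped each other, and QKO lay apart from both. Over all TE copies the means were 1.15 in WT and -1.31 in QKO, beside 1.13 ± 0.27 and -1.03 ± 0.14 for L1M.

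IGG, the denominator of the ranking, ran against the classes. The WT IGG signal of L1M copies fell from 1.21 in the lowest class through 1.06 and 1.00 to 0.853 in the highest, and LMNB1 rose from 0.437 through 0.732 and 1.1 to 1.60. With classes ranked by LMNB1 alone, which leaves the number of bins a copy touches uncorrected, IGG instead rose with the class, from 0.855 to 1.33. The naive QKO ratios were then -0.08, 0.08 and -0.06, close to 0 in place of clearly negative, while those of WT were 1.70, 2.01 and 1.56. LBRKO gave 1.03, 0.69 and 0.82 and TKO 1.04, 0.73 and 1.1, so both climbed, below all WT libraries. The drop from WT to QKO was -2.16 with the first ranking and -1.78 with the second. The sign of the QKO ratio and the like outer classes of LBRKO depend on the ranking. The parts of IGG and of the bins per copy in these profiles were not tested.

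**Figure D4:**
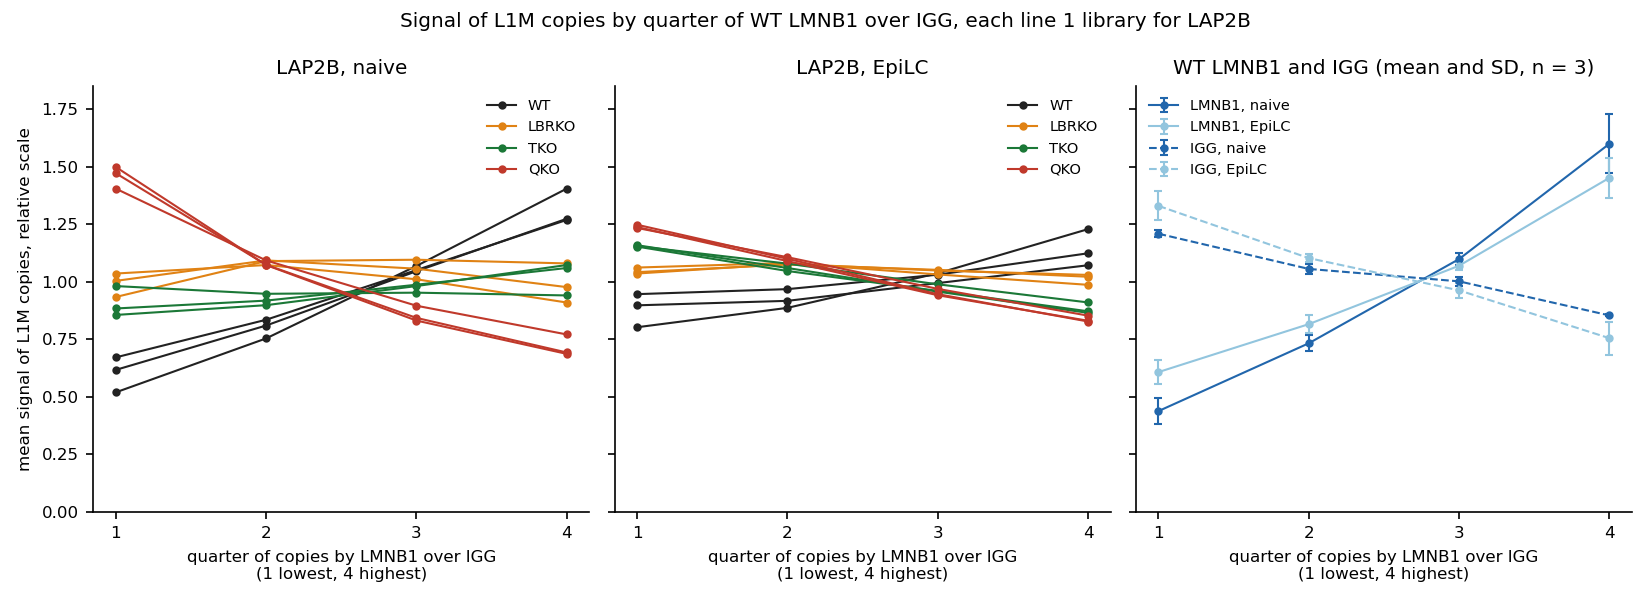
Mean signal of L1M copies (relative scale) in 4 classes of copies by WT LMNB1 over IGG, 1 lowest and 4 highest. The left and middle panels show each LAP2B library as a line in naive cells and EpiLCs, and the right panel the WT LMNB1 and IGG means with SD (n = 3). In naive cells WT lines climb from about 0.602 to 1.32, LBRKO lines part (log2 ratios of the highest to the lowest class of 0.21, -0.19 and -0.04) and QKO lines descend from about 1.46 to 0.716. IGG descends with the class at both stages.

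Counted copy by copy, 23.9% of L1M copies had all 3 naive QKO libraries below all 3 WT libraries and 19.7% had them above, against 23.6% and 27.8% of all copies. In LBRKO the shares were 16.6% lower and 18.9% higher, against 17.9% and 21.9%, and in TKO 10.6% and 10.8%, against 9.06% and 15.8%. The L1M shares that were lower stood within 2 percentage points of those of all copies, and the shares that were higher stood below them. In naive QKO the L1MA copies had 30.9% lower and 12.2% higher and the L1MB copies 17.5% and 27.3%, while L1Md had 46.7% lower and 4.49% higher. With libraries divided by their median gene, the L1M shares in naive QKO were 45.2% lower and 8.99% higher, against 43.2% and 16.1% of all copies.

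Copies of the same family spread widely, counting noise included. In each of the 65 L1M families with at least 200 ranked copies, the lowest 10% of copies lay below a change between -1.57 and -1.07 in naive QKO and the highest 10% above one between 0.72 and 1.82. For L1MA6 these limits were -1.47 and 0.98, and for L1MB7 -1.09 and 1.78. The change of all single L1M copies had a median of -0.19, and 10% of copies lay below -1.34 and 10% above 1.38. Over all repeat copies the median was -0.06, with limits of -1.315 and 1.87, so the upper limit of L1M was lower. The L1M median was 0.96 in the lowest class, 0.24 and -0.45 in the middle classes and -0.91 in the highest. Over all copies the class medians were 1.33, 0.34, -0.50 and -0.92. In L1MA and in L1MB alike the median fell with the class, from 0.76 to -0.97 and from 1.07 to -0.83. In the same class L1MB copies still stood above L1MA copies, by medians of 0.37 against 0.04 in the second class and -0.30 against -0.56 in the third.

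Many L1M copies share their measured bins with other repeats. Sharing was read from values identical in all 36 libraries, wherever the other copy stood in the table. Of the L1M copies, 52.9% had such values in common with another copy, 30.9% with a SINE (Alu, B2, B4 or ID, short repeats common in gene-rich DNA) and 4.84% with an L1Md or Lx copy. The median naive QKO change was 0.34 for the 50212 L1M copies that shared bins with SINEs and no young LINE-1, -0.70 for the 6032 that shared them with young LINE-1 and no SINE, and -0.37 for the 110888 with neither. SINE sharing was less common in L1MA (25.7%) and L1MB1 (26.6%) than in the other L1MB families together (36.8%), and it was 38.6% in L1MB5, 38% in L1MB7, 20.5% in L1MCb and 19.3% in L1M3c. SINE sharing was 26.3% in L1ME4a and 24.4% in L1ME5, with median copy changes in naive QKO of 0.13 and 0.12. L1M4a1 and L1MC had 35.7% and 34%, with -0.25 and -0.24. L1ME4a, L1ME5, L1M4a1 and L1MC were picked after their values were seen, and the relation of sharing to change across families was not tested. Of the copies with neither kind of neighbour, the medians were -0.57 in L1MB1 and -0.03 in the other L1MB families. Copies that share only a part of their bins with a SINE or young LINE-1 can be among these. The value of a copy with shared bins is that of its bins, and its own sequence and its neighbour cannot be told apart.

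In EpiLCs the same subgroups parted with smaller steps. In QKO 28 L1M families were higher and 21 lower relative to the median family, against 23.2% and 27.1% over all families, with medians of 0.01 for L1M and -0.01 overall. Of the L1MA families 7 of 9 were lower and none higher (median -0.10), 6 of 7 L1MB families were higher (median 0.14), and 16 of 27 L1ME families were higher and 1 lower (median 0.08). L1MB5 rose by 0.19 ± 0.025 and L1MB7 by 0.19 ± 0.022, while L1M3c and L1MCb changed by -0.18 ± 0.039 and -0.18 ± 0.037. Against the median gene L1MB5 and L1MB7 fell, by 0.07 and 0.07 on the log2 scale. Scaled to the median gene instead, the median family shifts by -0.26, which leaves 0 higher and 75 lower (1.2% and 89.4% of all families), dividing by the mean leaves 10 higher and 32 lower (11.2% and 46.6%), and 6 families passed with the median over copies (13.1%).

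L1MA6 stood at 1.00, 0.983 and 0.943 in WT EpiLCs and at 0.879, 0.881 and 0.902 in QKO EpiLCs. L1MB7 stood at 0.920, 0.967 and 0.925 in WT and at 1.07, 1.08 and 1.08 in QKO. Neither family overlapped between the groups.

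In LBRKO EpiLCs 34 L1M families were higher and 5 lower relative to the median family, against 19.8% and 29.4% over all families, so the L1M share of higher families stood above the background and that of lower families below it. The median was 0.06, beside -0.02. None of the 9 L1MA families passed in either direction, while 6 L1MB, 18 L1ME and 5 L1MC families were higher. L1ME3B rose by 0.19 ± 0.035 and L1MC5 by 0.18 ± 0.023, and L1M3c and L1M1 changed by -0.18 ± 0.039 and -0.10 ± 0.026. L1ME3B stood at 0.901, 0.947 and 0.857 in WT and at 1.06, 1.03 and 1.04 in LBRKO. Scaling to the median gene, which shifts the median family by -0.05, leaves 0 higher and 2 lower (2.82% and 24.4% of all families), dividing by the mean leaves 31 higher and 3 lower (21.4% and 26.8%), and 10 families passed with the median over copies (20.5%).

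In TKO EpiLCs 16 L1M families were higher and 14 lower, against 15.3% and 18.6% over all families, with medians of 0.01 and -0.01. The 6 L1MB families other than L1MB1 were higher and 4 L1MA families lower. L1MB5 rose by 0.16 ± 0.025 and L1MB3 by 0.15 ± 0.024 relative to the median family, each slightly lower against the median gene (-0.03 and -0.04), and L1M2c and L1MCb changed by -0.17 ± 0.036 and -0.16 ± 0.037. Of the 30 families that passed, 15 still passed in the same direction without the first WT EpiLC library and none with the median over copies (0.342% of all families). Dividing by the median gene shifts the median family by -0.19 and leaves 0 higher and 59 lower (0.427% and 77.5% of all families), and dividing by the mean leaves 7 higher and 22 lower (7.78% and 32.6%).

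On the deposited scale all 82 L1M families were lower in QKO EpiLCs, against 99.9% of all families, with a median of -1.05. In TKO EpiLCs 7 were lower, against 15% of all families, with a median of -0.43. That count was 0 without the second TKO EpiLC library and 82 without the first. The shares of all families in these fits are not given, so the 82 is no result about L1M. L1MA6 had deposited signals of 0.751, 0.487 and 0.665 in WT EpiLCs, 0.562, 0.386 and 0.336 in TKO and 0.264, 0.240 and 0.256 in QKO, so TKO overlapped WT and QKO did not. In LBRKO EpiLCs limma called 0 lower, with 0 at an unadjusted p under 0.05, against 0% of all families.

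LMNB1 over IGG sorted the QKO changes of EpiLCs in the same way. Of 37 L1M families with EpiLC LMNB1 over IGG above 0, 21 were lower in QKO and none higher, and of 45 below 0, 28 were higher and none lower (rho -0.936 across 82 families). Of all families 52.4% above 0 were lower and 1.39% higher, and 2.68% below 0 were lower and 44.1% higher (rho -0.818 across 1170). In LBRKO EpiLCs the L1M families above 0 had 5 lower and 4 higher, and those below 0 none lower and 30 higher (rho -0.797). The shares of all families were 44.1% lower and 4.88% higher above 0, and 15.3% and 34.2% below it. In TKO EpiLCs the L1M families had 14 lower and none higher above 0, and none lower and 16 higher below it (rho -0.919). The shares of all families were 37.6% and 0% above 0, and 0.336% and 30% below it. The log2 ratio of L1M signal in the highest to the lowest class was 0.62, 0.25 and 0.26 in WT EpiLCs, with -0.03, -0.01 and -0.11 for LBRKO, -0.40, -0.42 and -0.34 for TKO and -0.58, -0.59 and -0.53 for QKO. WT LAP2B separated the classes less in EpiLCs (0.37 ± 0.21, SD, n = 3) than in naive cells (1.13 ± 0.27), without overlap. WT LMNB1, which made the classes, also separated them less, with 1.1, 1.49 and 1.19 in EpiLCs against 2.20, 1.60 and 1.83 in naive cells. With the classes of naive cells the WT EpiLC libraries had 0.62, 0.25 and 0.27. Each mutant lay below WT without overlap, and here TKO, unlike naive TKO, lay below 0 in every library. WT IGG fell from 1.33 in the lowest class to 0.754 in the highest. With classes ranked by LMNB1 alone, by which IGG rose from 0.864 to 1.32, the ratios were above 0 in every EpiLC library, at 0.53, 0.52 and 0.56 in QKO, 0.64, 0.64 and 0.66 in TKO, 0.91, 0.91 and 0.84 in LBRKO and 1.34, 1.08 and 1.1 in WT. By single copies, 10.6% of L1M copies were lower without overlap in QKO EpiLCs and 11.9% higher, against 10.5% and 15.9% of all copies. With libraries divided by their median gene these L1M shares were 19.5% and 5.38%, against 19.3% and 8.15% of all copies.

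The naive and EpiLC comparisons of QKO with WT share no library. The sign of the change agreed in 80 of 82 L1M families (97.6%), against 86.8% of all families. Of the 46 that passed at both stages all 46 had the same direction, 25 higher and 21 lower relative to the median family, against 550 of 553 over all families. The size did not carry over. The median absolute change was 0.21 in naive cells and 0.08 in EpiLCs, and 75 of 82 families (91.5%) changed less in EpiLCs, against 86.7% of all families. WT LAP2B itself separated the classes of L1M copies less in EpiLCs (0.37 ± 0.21, SD, n = 3) than in naive cells (1.13 ± 0.27). The part of this WT difference in the smaller change was not tested. Tested as an interaction, the QKO change was more positive in EpiLCs in 24 L1M families and more negative in 21, against 26.4% and 29.2% over all families, with a median of 0.02 beside 0.00. All 9 L1MA families were among the 24 (median 0.16) and 6 of 7 L1MB families among the 21 (median -0.16). The differences were 0.27 ± 0.065 for L1M3d, 0.27 ± 0.052 for L1MCb, -0.26 ± 0.035 for L1MB5 and -0.25 ± 0.039 for L1ME4b, the last pair turning to 0.16 and 0.17 against the median gene. On the median gene scale the median difference shifts by 0.42 and all 82 are more positive and 0 more negative (89.2% and 2.05% of all families), dividing by the mean leaves 59 more positive and 1 more negative (64.9% and 8.29%), and none passed with the median over copies (10.8% of all families).

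**Figure D5:**
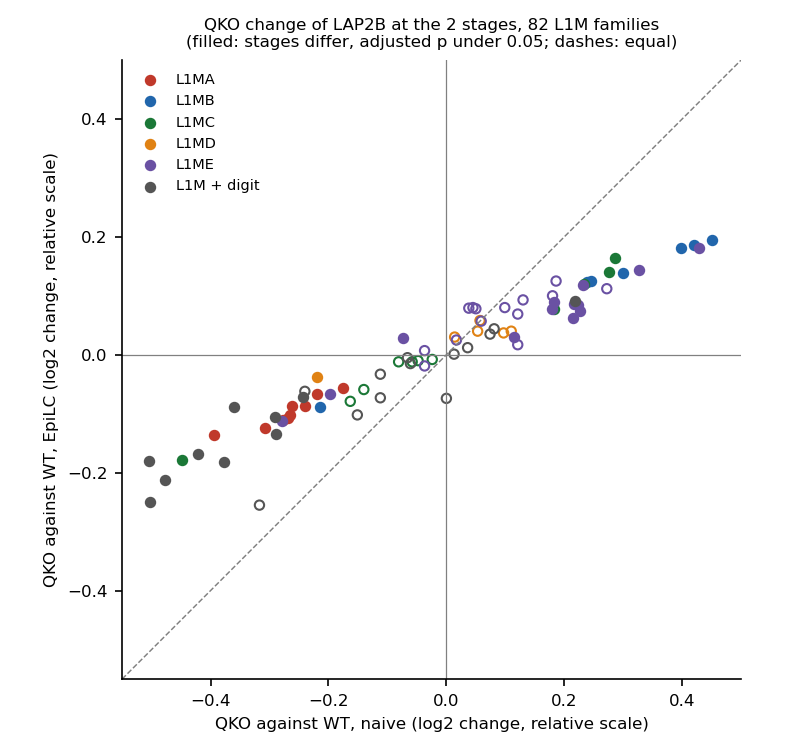
LAP2B change in QKO against WT (log2, relative scale) in naive cells and in EpiLCs for the 82 L1M families, coloured by subgroup. Filled points differ between stages by limma's interaction test (adjusted p under 0.05), and the dashed line marks equal change. The points lie along a line flatter than the dashed one, with 80 of 82 families of the same sign at both stages.

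In WT, the passage from naive cells to EpiLCs raised LAP2B at 34 L1M families relative to the median family and lowered it at 1, L1MEh (201 copies, -0.09 ± 0.030, libraries overlapping), against 14.8% and 14.1% over all families. The median was 0.05, beside 0.00. The higher families comprised 18 L1ME, 5 L1MB, 4 L1MC, 3 L1MD and 4 families with a digit, and none was L1MA. Among families of at least 200 copies whose libraries did not overlap, L1MEb (507 copies) rose most, from 0.795, 0.801 and 0.832 to 0.893, 0.923 and 0.886, by 0.14 ± 0.027, and L1MB3 rose by 0.14 ± 0.024. Against the median gene both were lower instead, by 0.15 and 0.16 on the log2 scale. The count of 35 was 8 without the second WT EpiLC library, 14 and 22 without the second and the first naive WT library, and 0 with the median over copies (2.22% of all families). Dividing by the median gene shifts the median family by -0.30 and leaves 0 higher and 81 lower (0.256% and 96.9% of all families), and dividing by the mean leaves 6 higher and 3 lower (6.15% and 27.1%).

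On the deposited scale limma called 0 L1M families lower in WT EpiLCs, with 0 at an unadjusted p under 0.05, against 0% of all families. LMNB1 on the relative scale differed between the stages in 0 L1M families, with 6 at an unadjusted p under 0.05, against 0.855% of all families called. IGG differed in 0, with 4 at an unadjusted p under 0.05, against 0.256% called. LMNB1 and IGG were each fitted on their 6 libraries alone and LAP2B on 24, so these counts cannot be set against the LAP2B count. Without overlap, LMNB1 was higher in 7 L1M families and lower in 1, against 113 and 114 of all 1170. L1MB7, for example, had LMNB1 levels of 0.848, 0.855 and 0.875 in naive cells and 0.918, 0.878 and 0.887 in EpiLCs, and IGG levels of 0.969, 1.02 and 1.01 and of 1.02, 1.04 and 1.05.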

How the data were processed

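Signal over TE copies and genes was analysed in 36 libraries. Per the methods and the submitters' notes, the authors aligned reads to mm39 with Bowtie2 2.3.5.1 and SAMtools 1.10, made RPKM coverage in bins with deepTools and multiplied it by a factor from yeast spike-in reads; the deposited signal adds up the bins a copy touches. The bin width of the TE table is uncertain (methods and values differ). Copies were averaged per family, log2 transformed (pseudocount 0.0857 on the relative and 0.0376 on the spike-in scale for LAP2B) and fitted with limma 3.58.1 in R 4.3.3 over families of at least 20 copies, with 8 group means for LAP2B and Benjamini-Hochberg adjustment over 1170 families. The fit was tested on simulated data.

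Named by rule were the most numerous family of each subgroup and the families with most and fewest copies. So were the 4 (naive QKO) or 2 largest called changes each way among families of at least 200 copies with no overlap between groups. The 2 highest and 2 lowest by LMNB1 over IGG were named too. All other families were named after their values were seen, also where no sentence beside them says so. Members, lists and tests were chosen with earlier results of these data known. Mapping of repetitive reads can move signal between copies of a family. 2 H3K9me3 samples and a table of modified z scores were not used here.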

Additional observations from a re-analysis of the deposited data

Results flagged for a closer look

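The QKO change in LAP2B differed between naive cells and EpiLCs in 45 of 82 L1M families by limma's interaction test (adjusted p under 0.05), against 55.6% of all 1170 families, so the share of L1M families (54.9%) stood near that of all repeats. The EpiLC minus naive difference of the log2 change was 0.272 for L1M3d (adjusted p = 0.00173), 0.269 for L1MCb (0.000284), -0.257 for L1MB5 (8.11e-06) and -0.248 for L1ME4b (3.55e-05). In each of these 4 families the change was nearer to 0 in EpiLCs. WT LAP2B itself separated the classes of copies by LMNB1 over IGG less in EpiLCs, and the part of this was not tested. With the median over copies 0 families passed, and with libraries divided by the median gene all 82 differences were positive. Groups held 3 libraries, too few for a test of single outlying libraries.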

How the results depend on the processing

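The choices below moved the counts of L1M families called. With the median over copies the counts on the relative scale were 28 for naive LBRKO, 7 for naive TKO, 39 for naive QKO, 16 for naive QKO against TKO, 10, 0 and 6 for EpiLC LBRKO, TKO and QKO, 0 for the WT stages and 0 for the stage difference of QKO, and on the spike-in scale 3 for naive LBRKO and 12 for EpiLC TKO. With the median gene as the scale they were 82 for naive TKO, 2, 59 and 75 for EpiLC LBRKO, TKO and QKO, 81 for the WT stages, 82 for the stage difference and 2 for IGG, and with the mean over copies 64 for naive TKO and 9 for the WT stages. The spike-in count of EpiLC TKO was 4 with families of every size. For these spike-in counts the shares of all families are not given.

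Leaving out 1 library gave 57 to 64 families for naive LBRKO, 36 to 41 for TKO, 65 to 67 for QKO and 53 to 60 for QKO against TKO, 31 to 40, 15 to 31 and 40 to 49 in EpiLCs, 8 to 34 for the WT stages, 40 to 47 for the stage difference and 0 to 82 for EpiLC TKO on the spike-in scale. Shares of all families are not given for the fits without 1 library, so these counts are no result about L1M. All 38 changes of named families stayed past the threshold in the same direction in each of the 252 fits without 1 library. With the median over copies 17 of the 38 no longer passed, and with libraries divided by the mean over copies 2.

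With the median gene as the scale 14 named changes turned sign. These were L1MB3 and L1ME4b in naive TKO (-0.313 and -0.313), L1MB5, L1ME4b, L1MB7 and L1MB3 in naive QKO (-0.227, -0.244, -0.258 and -0.281), L1MB5 and L1MB3 in EpiLC TKO (-0.029 and -0.036), L1MB5 and L1MB7 in EpiLC QKO (-0.066 and -0.073), L1MEb and L1MB3 between WT stages (-0.149 and -0.155), and L1MB5 and L1ME4b in the stage difference (0.161 and 0.168). The shares of copies without overlap, lower and higher, became 26.3% and 10.9% in naive LBRKO, 27.1% and 3.52% in naive TKO, 45.2% and 8.99% in naive QKO and 19.5% and 5.38% in EpiLC QKO, against 27.6% and 13.3%, 24.5% and 6.02%, 43.2% and 16.1%, and 19.3% and 8.15% of all copies. On the spike-in scale they were 47.6% and 0.386% in naive TKO, 75.4% and 1.03% in naive QKO and 57.9% and 0.148% in EpiLC QKO, against 44% and 0.889%, 69.7% and 3.11%, and 55.4% and 0.34% of all copies. Without 1 library, which makes non-overlap easier to reach, they spanned 20.4% to 22.4% lower and 22.5% to 25% higher in naive LBRKO, 15.2% to 16.6% and 14% to 16.6% in naive TKO, 27.4% to 31.5% and 22.2% to 24.1% in naive QKO, and 14.8% to 17.7% and 16.4% to 18.8% in EpiLC QKO.

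The difference from WT of the log2 ratio of the highest to the lowest class was -1.780 in naive QKO, -0.528 in EpiLC TKO and -0.635 in EpiLC QKO with classes by LMNB1 alone. Without 1 library it spanned -1.248 to -0.989, -1.067 to -0.807 and -2.269 to -2.010 in naive LBRKO, TKO and QKO, and -0.484 to -0.300, -0.826 to -0.642 and -1.003 to -0.819 in EpiLCs. On the relative scale libraries of the same replicate number did not deviate together (median correlation -0.00 over 84 LAP2B pairs, 21 above 0.1). The spike-in scale was not examined in this way. A fit with the replicate number as a block gave 0 in place of 7 families for EpiLC TKO on the spike-in scale. It moved no other count by over 1.5 times. The causes of these shifts were not tested. A median of 6 to 20 reads per L1M copy limits what single copies can show.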
